A study of Arabidopsis thaliana with 12 samples.

Results

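The elongation zone of Arabidopsis thaliana roots was compared with the meristematic zone in wild-type Col-0 plants. The comparison rests on 4 of the 12 arrays of the series, 2 biological replicates of each zone, and covers all 22746 probe sets that are not controls, of which 15834 were bright enough to be tested. Col-0 is the Columbia-0 ecotype. The seedlings were 6 days old and grew on Murashige and Skoog medium with sucrose, the zones were cut apart with a razor blade under a microscope, and each replicate pooled about 60 roots. Labelled cRNA came from a two-cycle amplification and was hybridised to the Affymetrix ATH1 array, which measures each transcript with a set of short probes near its 3′ end.

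The same 2 zones were also profiled, with 2 replicates each, in upb1-1, a mutant of the UPB1 gene, and in 1 transgenic line, 35S::UPB1-3YFP #2, which carries UPB1 fused to yellow fluorescent protein under the constitutive 35S promoter in the upb1-1 background and whose arrays are labelled OXUPB1-2. All 3 genotypes share the Columbia-0 background, age and medium. Those 8 arrays share none with the Col-0 contrast and are given beside it.

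In the root tip, cells divide in the meristematic zone, leave it through a transition zone and then lengthen in the elongation zone before they differentiate. Division needs new chromatin, ribosomes and phragmoplasts, the structures that build the dividing wall. Lengthening is driven by water uptake into the vacuole and needs a wall that is loosened by proteins such as expansins and xyloglucan endotransglucosylase/hydrolases, while class III peroxidases can stiffen or loosen it through hydrogen peroxide. UPB1 is a bHLH transcription factor of the transition zone known to repress peroxidase genes.

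In Col-0, UPB1 itself gave a signal of 667 and 528 in the meristematic zone and 1379 and 1233 in the elongation zone. The zones did not overlap, and the mean signal was 2.19 times as high in the elongation zone (log2 change 1.11 ± 0.26 standard error, adjusted p = 0.00335). In upb1-1 the signals were between 8.53 and 16.8 on all 4 arrays. On the arrays labelled OX they were 28.1 and 55.2 in the meristematic zone and 53.6 and 35.3 in the elongation zone, below every Col-0 array, which goes against a label of overexpression at this probe set. Which part of the transcript its probes read is not known here. Those arrays are therefore called labelled OX throughout. Here and below, values with ± are log2 changes with their standard errors from limma, fitted on log2(signal + 16), so a log2 change of a dim probe set understates the ratio of its signals.

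One measure of the RNA moved with the zone. Probe sets for the 3′ and the 5′ ends of actin, GAPDH and ubiquitin gave a mean log2 ratio of 3′ over 5′ signal of 2.16 and 2.27 in the Col-0 meristematic zone and 3.87 and 3.99 in the Col-0 elongation zone. In upb1-1 the group means were 2.04 and 4.04. On the arrays labelled OX they were 4.17 and 3.97, so there the zones differed by far less. The part of this ratio in the zone differences of Col-0 was not tested. The zone difference on the arrays labelled OX, where the ratios of the zones were close, is printed beside many of the main results. The median signal was 66.8 and 67.4 on the meristematic arrays and 55.3 and 50.8 on the elongation arrays. Replicates differed by a standard deviation of 0.22 (meristematic) and 0.30 (elongation) on the log2 scale.

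**Figure D1:**
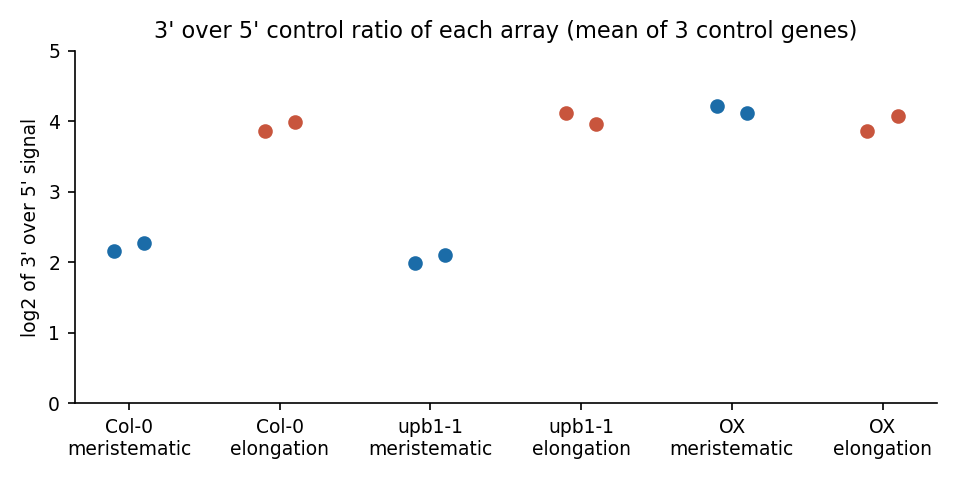
Mean log2 ratio of 3′ over 5′ signal of the actin, GAPDH and ubiquitin controls on each of the 12 arrays, by genotype and zone (2 points a group, 1 per replicate). The Col-0 and upb1-1 meristematic arrays lie near 2, and the other 8 arrays near 4.

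Of the 15834 tested probe sets, 6382 (40.3%) differed between the zones of Col-0 at an adjusted p below 0.05. They comprised 2767 that were higher in the elongation zone (17.5%) and 3615 that were lower (22.8%). The change over all tested probe sets had a median of -0.06. Falls were larger than rises: 321 of the lower probe sets changed by more than 2 log2 units against 37 of the higher ones, and 2063 against 961 changed by more than 1. The balance of rises and falls depends on the scaling, since 56.6% of the changed probe sets were lower with the deposited scaling, 47.3% after quantile normalization and 34.8% after each array was centred on its median, which moved the median change over the whole set to 0.21. The 4 arrays of the zones did not overlap at 11517 probe sets (72.7%), so the absence of overlap between 2 arrays and 2 arrays carries little weight here.

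The zone contrast changed 8329 probe sets in upb1-1 (52.6%) and 8470 on the arrays labelled OX (53.5%). Of the 6382 probe sets changed in Col-0, 4932 (77.3%) changed the same way in upb1-1, which is 59.2% of the upb1-1 changes, and 86 changed the opposite way. On the arrays labelled OX, 3946 (61.8%) changed the same way, 46.6% of the changes there, and 334 the opposite way. All 3 genotypes shared the direction and the call at 3417 probe sets, 1406 higher and 2011 lower in the elongation zone. The zone difference itself departed from that of Col-0 at 359 probe sets in upb1-1 (2.27%) and at 3803 on the arrays labelled OX (24.0%). Both tests used the Col-0 arrays. The mean log2 ratio of 3′ over 5′ control signal in the meristematic zone was 2.22 in Col-0, 2.04 in upb1-1 and 4.17 on the arrays labelled OX. Its part in these counts was not tested.

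**Figure D2:**
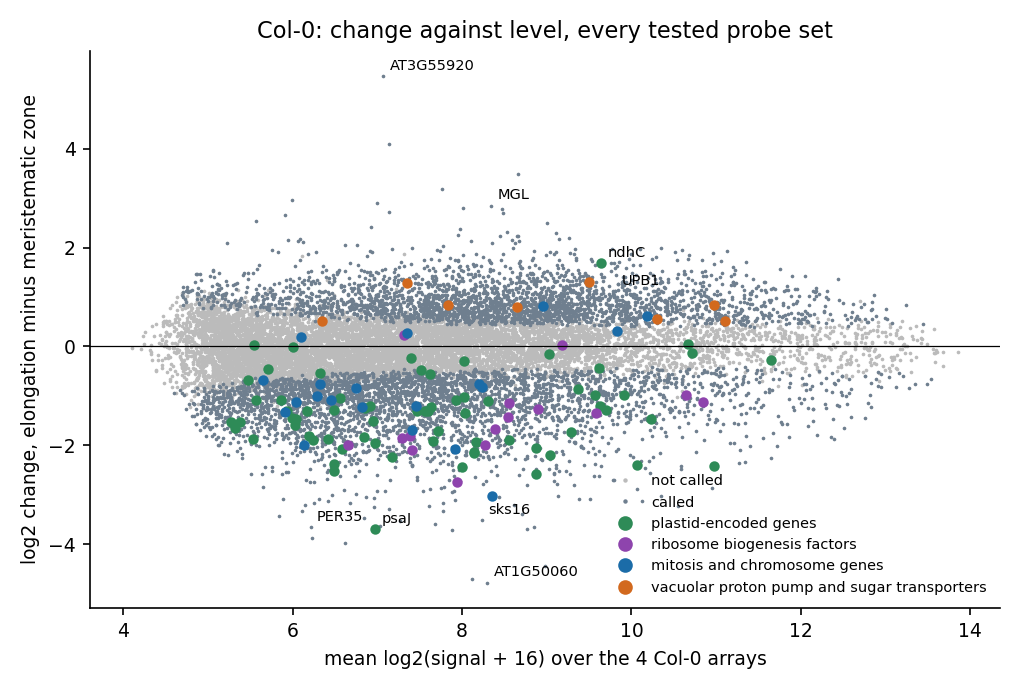
Log2 change of each tested probe set between the zones of Col-0 (elongation minus meristematic) against its mean log2(signal + 16) over the 4 Col-0 arrays, with 4 gene lists in colour. Most plastid-encoded genes, ribosome biogenesis factors and mitosis genes lie below the line at 0, and the 8 vacuolar pump and sugar transporter genes lie above it.

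Genes of cell division were lower in the elongation zone. All 5 tested genes of a list for the G2/M phase and cytokinesis fell, against a background of 22.8% falling. The list had 40 genes, of which 5 could be named on the array. In a zone cut from whole roots, fewer cells of a type and less RNA per cell cannot be told apart, here and in every group below. AUR2, an Aurora kinase of the dividing cell plate and spindle, had signals of 322 and 261 in the meristematic zone and 102 and 59.7 in the elongation zone. Its zones did not overlap (change -1.69 ± 0.26, adjusted p = 0.000169). The other Aurora kinases fell by less, AUR1 with a change of -0.81 ± 0.23 and AUR3 with -0.83 ± 0.25. BUBR1 and BUB3.1, of the spindle checkpoint that delays anaphase, changed by -1.33 ± 0.32 and -0.75 ± 0.19. Without elongation replicate 2, 1 of the 5 genes passed the test, and without either meristematic replicate 3 did. The 5 genes fell in upb1-1 and on the arrays labelled OX as well, with medians of -1.59 and -2.20 against -0.83 in Col-0.

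A wider list of mitosis and chromosome genes, drawn up after values had been seen, held 20 tested genes that include the same 5. Of these 13 fell, 2 rose and 5 did not pass, with a median of -0.92, and after median centring 4 rose. Over all tested probe sets 22.8% were lower and 17.5% higher. 3xHMG-box2, which coats mitotic chromosomes, gave signals of 1029.6 and 819.5 in the meristematic zone against 154 and 61.5 in the elongation zone. Both elongation arrays lay far below both meristematic arrays (change -3.02 ± 0.35, adjusted p = 1.75e-05), and the change was -3.65 in upb1-1 and -3.30 on the arrays labelled OX. KINESIN-12B, a motor of the phragmoplast, had signals of 117 and 131 against 28.2 and 11.8 in the same order, with a change of -1.99 ± 0.28. Its zone change was nearly the same in the 3 genotypes, -2.09 in upb1-1 and -2.09 on the arrays labelled OX. TOPII, the topoisomerase that untangles replicated DNA, changed by -2.07 ± 0.32, and HTR12, the histone H3 of centromeres, by -1.09 ± 0.24.

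The 2 risers on that list were KINESIN-13A and TON1B. KINESIN-13A, linked to Golgi and cell wall patterning, rose from 913 and 931 to 1433 and 1408 (0.62 ± 0.15). TON1B, which helps to organise cortical microtubules, rose from 314 and 402 to 690.5 and 598 (0.83 ± 0.18). Both rose in all 3 genotypes.

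Some genes of DNA synthesis and core histones were lower as well. ICU2, the catalytic subunit of DNA polymerase alpha, had signals of 129.6 and 129 in the meristematic zone and 45.5 and 37.4 in the elongation zone (-1.34 ± 0.23, adjusted p = 0.000427). PRL, the MCM7 subunit of the replicative helicase, had 669 and 599 against 316 and 271 (-1.07 ± 0.19). These were the 2 tested genes of a list of 33 replication genes. Among 19 tested replication and repair genes drawn up after values had been seen, 7 fell, none rose by the limma test and 12 did not pass, where 22.8% of all tested probe sets were lower. The count of falls was 4 without either meristematic replicate or without elongation replicate 2 and 3 after quantile normalization, and median centring left 3 falls and gave 2 rises. Of 5 core histone genes 3 fell. HTB2 gave signals of 659 and 699 in the meristematic zone and 268 and 188 in the elongation zone, and HTB1 of 2269 and 1787 against 1169.8 and 636, with changes of -1.53 ± 0.28 and -1.21 ± 0.29. Signals of HTB4 were 4501 and 4222 against 6155 and 5382, a change of 0.40 that did not pass (adjusted p = 0.181), and after centring each array on its median 1 core histone gene passed as a rise.

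**Figure D3:**
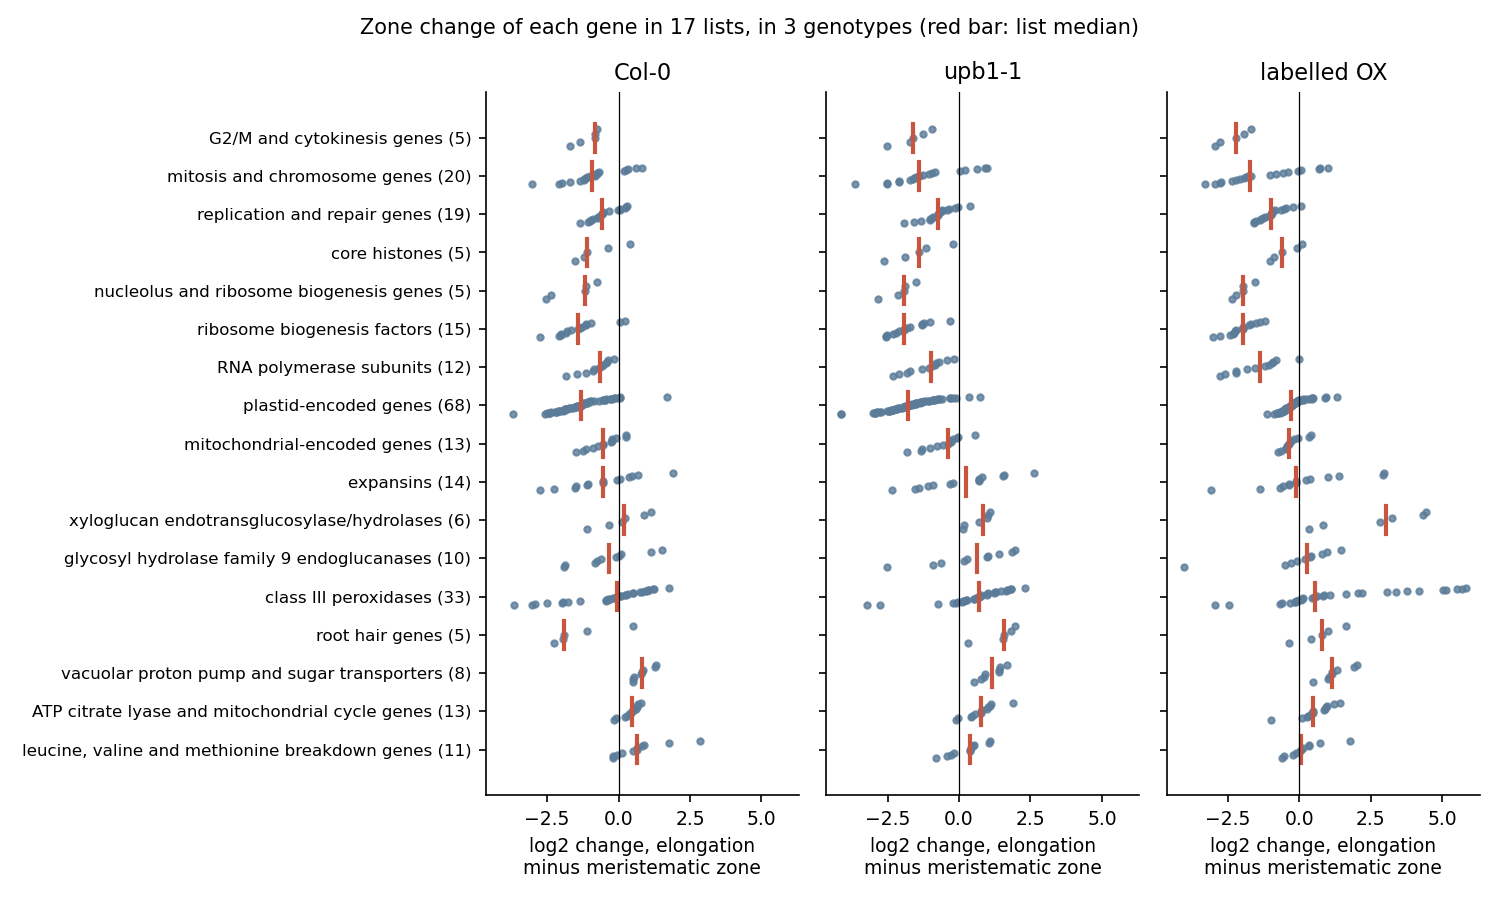
Zone change (log2, elongation minus meristematic) of every tested gene in 17 lists, in Col-0, upb1-1 and on the arrays labelled OX. Each point is a gene, the red bar is the list median and the number of genes is in parentheses. The medians of the division and ribosome lists lie below 0 in all 3 panels, that of the plastid-encoded genes is -0.28 in the panel labelled OX, and that of the root hair genes is below 0 in Col-0 and above 0 in upb1-1.

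Nucleolar and ribosome biogenesis genes were lower in the elongation zone. Of 5 tested genes of the first such list 4 fell, with a median of -1.17, against 22.8% lower over all tested probe sets. NOP5-2, a core protein of the particles that methylate ribosomal RNA, had signals of 1701 and 1719 in the meristematic zone and 384 and 260.5 in the elongation zone. No array of one zone came near the other (change -2.38 ± 0.21, adjusted p = 3.24e-06). BRX1-1, of large subunit assembly, changed by -2.53 ± 0.23, GAR1, of the pseudouridylation particles, by -1.17 ± 0.24 and PES, the pescadillo protein of large subunit assembly, by -1.13 ± 0.29. SAHY1 had 1772 and 1639 in the meristematic zone and 1497 and 688 in the elongation zone, where the 2 replicates differed, and did not pass (adjusted p = 0.168).

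A second list of 15 ribosome biogenesis factors, chosen after values had been seen and sharing PES with the first and NRPA1 and NRPA2 with the polymerases below, had 13 that fell, none that rose by the limma test and 2 that did not pass, with a median of -1.43. RBL (REBELOTE, AT3G55510) had signals of 623 and 614 against 96.6 and 64.6 in the meristematic and elongation zones, a change of -2.74 ± 0.26. IMP4, a small subunit processome protein, changed by -1.996 ± 0.23, and YAO, a nucleolar WD40 protein, by -1.68 ± 0.28. All 15 were called lower on the arrays labelled OX, where the median was -1.99, and 14 in upb1-1, where it was -1.91. Over all tested probe sets 22.8% were lower in Col-0, 29.6% on the arrays labelled OX and 28.5% in upb1-1. Of 12 tested subunits of the RNA polymerases 6 fell and 6 did not pass, and 3 fell without elongation replicate 2. The list of polymerase subunits was also drawn up after values had been seen. Changes were -1.85 ± 0.25 for NRPA1 and -1.15 ± 0.26 for NRPA2, the 2 largest subunits of RNA polymerase I, which transcribes ribosomal RNA. Genes of the cytosolic ribosomal proteins themselves could not be named from the gene tables used here.

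Most plastid-encoded genes fell in Col-0, and few did on the arrays labelled OX. Of 68 tested genes of the plastid genome 53 were lower in the elongation zone of Col-0, 1 was higher and 14 did not pass. The median change was -1.31. Over all tested probe sets of Col-0 22.8% were lower and 17.5% higher. psaJ, a small subunit of photosystem I, had signals of 417 and 459 in the meristematic zone and 24.0 and 14.7 in the elongation zone (-3.69 ± 0.22, adjusted p = 1.04e-07). It was among the 12 largest falls of all named genes. In upb1-1 the change was -4.13 ± 0.22, and on the arrays labelled OX, where signals were 60.1 and 64.4 against 58.8 and 38.9, it was -0.29 ± 0.22 and did not pass. The difference between that zone change and the one in Col-0 was 3.41 ± 0.31 (adjusted p = 4.6e-06).

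The ATP synthase genes atpA and atpB also fell. Signals of atpA were 962 and 1332 in the meristematic zone and 193 and 162 in the elongation zone of Col-0 (-2.57 ± 0.22), and those of atpB were 4957 and 4304 against 815 and 892 (-2.42 ± 0.22). On the arrays labelled OX the changes were -0.09 and -0.28, and both differed from Col-0 (adjusted p = 8.17e-05 and 0.000242). The fatty acid synthesis gene accD fell by the same order in Col-0 (-2.15 ± 0.22). The single rise was ndhC, a subunit of the plastid NADH dehydrogenase-like complex, from 374 and 498 to 1509 and 1332 (1.68 ± 0.18), and its signals were between 1043 and 1533 in both zones on the arrays labelled OX. Across the 68 genes, 61 were lower in upb1-1 (median -1.78) and 11 on the arrays labelled OX (median -0.28), where 28.5% and 29.6% of all tested probe sets were lower. The zone change on the arrays labelled OX differed from Col-0 at 33 of the 68 genes, against 24.0% of all tested probe sets. The 3′ over 5′ control ratio separated the zones in Col-0 and upb1-1 and not on the arrays labelled OX, and its part in the plastid result was not tested.

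Of 13 tested genes of the mitochondrial genome 4 fell, none rose by the limma test and 9 did not pass, with a median of -0.53. Over all tested probe sets 40.3% were called and 22.8% were lower, so this count does not set the mitochondrial genes apart. The falls were ccb382 and ccb206, of cytochrome c maturation, with changes of -1.49 ± 0.26 and -0.72 ± 0.24, the cytochrome oxidase gene cox2 (-1.25 ± 0.33) and the NADH dehydrogenase gene nad1 (-1.15 ± 0.38). The 2 meristematic replicates disagreed for several of them. ccb382, for example, had 618 and 1266 in the meristematic zone against 307 and 303 in the elongation zone. After median centring 1 of the 13 genes rose. The number that fell ranged from 1 to 4 over the alternatives, 1 with the filter at the array median and 2 without meristematic replicate 2 or elongation replicate 2. There were 6 probe sets for nad1, with changes from -1.86 to 0.39.

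Cell wall genes moved in both directions. Among 14 tested expansins, which loosen the wall at acid pH, 6 fell, 1 rose and 7 did not pass (median -0.55), against 17.5% higher and 22.8% lower over all tested probe sets. EXPA4 had signals of 202 and 152 in the meristematic zone and 11.6 and 13.8 in the elongation zone, close to the dim end of the scale (-2.74 ± 0.24, adjusted p = 3.23e-06). EXPA9 changed by -1.52 ± 0.23 and EXPA15 by -1.07 ± 0.29. The only expansin that rose was EXPA8, from 35.7 and 57.8 to 188 and 253 (1.92 ± 0.32, adjusted p = 0.000346), and it rose in upb1-1 (2.63) and on the arrays labelled OX (2.94) too. After median centring 2 expansins rose and 5 fell.

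Enzymes that act on xyloglucan and cellulose were split as well. XTH16 had signals of 502 and 564 in the meristematic zone and 1139.8 and 1238 in the elongation zone of Col-0 (1.13 ± 0.18), and XTH21 had 339 and 383 against 688 and 685 (0.90 ± 0.25), while XTH18 fell from 856 and 751 to 337 and 403 (-1.09 ± 0.25). The other 3 tested members of the family did not pass, and 1 member in all rose without meristematic replicate 1. Of 10 tested endoglucanases of glycosyl hydrolase family 9, a list made after values had been seen, 2 rose and 4 fell, and 2 fell without meristematic replicate 1, without elongation replicate 1 or after median centring. Over all tested probe sets 17.5% were higher and 22.8% lower. GH9B13 rose from 947 and 1213 to 2359.7 and 3991 (1.503 ± 0.24) and GH9B7 from 1625 and 1803 to 3611 and 3983 (1.14 ± 0.16). GH9B6 fell from 112 and 107 to 20.18 and 17.1 (-1.86 ± 0.32). These 3 kept their direction and call in upb1-1 and on the arrays labelled OX.

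The SKU5 family of copper oxidase-like surface proteins, named for twisted root growth, fell at all 3 tested members, a list also made after values had been seen. sks16 had signals of 1079 and 925 in the meristematic zone and 105 and 49.2 in the elongation zone (-3.51 ± 0.26, adjusted p = 8.94e-07), and sks15 had 2271 and 2183 against 500.5 and 427 (-2.23 ± 0.36). SKU5 itself fell in Col-0 (-1.62 ± 0.30) from 1368 and 1413 to 357 and 545. In upb1-1 its elongation replicates were far apart, 778 and 1688, and its change there did not pass. On the arrays labelled OX SKU5 had a change of 0.61 that did not pass, while sks16 and sks15 fell (-5.39 and -2.50). The zone change there differed from Col-0 at 2 of the 3 genes. HRGP1, an extensin of the wall, fell from 633 and 619 to 244 and 151 (-1.62 ± 0.30), whereas on the arrays labelled OX it rose (1.18). Among 19 tested genes with TBL symbols, a family of wall polysaccharide acetyltransferases, 6 rose and 1 fell, against 17.5% higher and 22.8% lower over all tested probe sets. This family was picked after values had been seen. TBL39 and TBL35 changed by 1.13 ± 0.16 and 1.09 ± 0.17.

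Of 7 tubulin genes, the subunits of microtubules, 1 fell, 1 rose and 5 did not pass. The shares over all tested probe sets were 22.8% lower and 17.5% higher. TUB7 fell from 1459 and 1406 to 566 and 559 (-1.32 ± 0.16) and TUB5 rose from 1742 and 1792 to 2771 and 2964 (0.69 ± 0.16). TUB6 and TUB1 had changes of 0.22 ± 0.15 and 0.26 ± 0.19 and did not pass, but after median centring 3 tubulins rose. COB, which orients cellulose deposition and was the only one of 15 cellulose genes with a named probe set, had 1774 and 1924 in the meristematic zone and 1565 and 1999 in the elongation zone and a change of -0.06 ± 0.16 (adjusted p = 0.794).

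**Figure D4:**
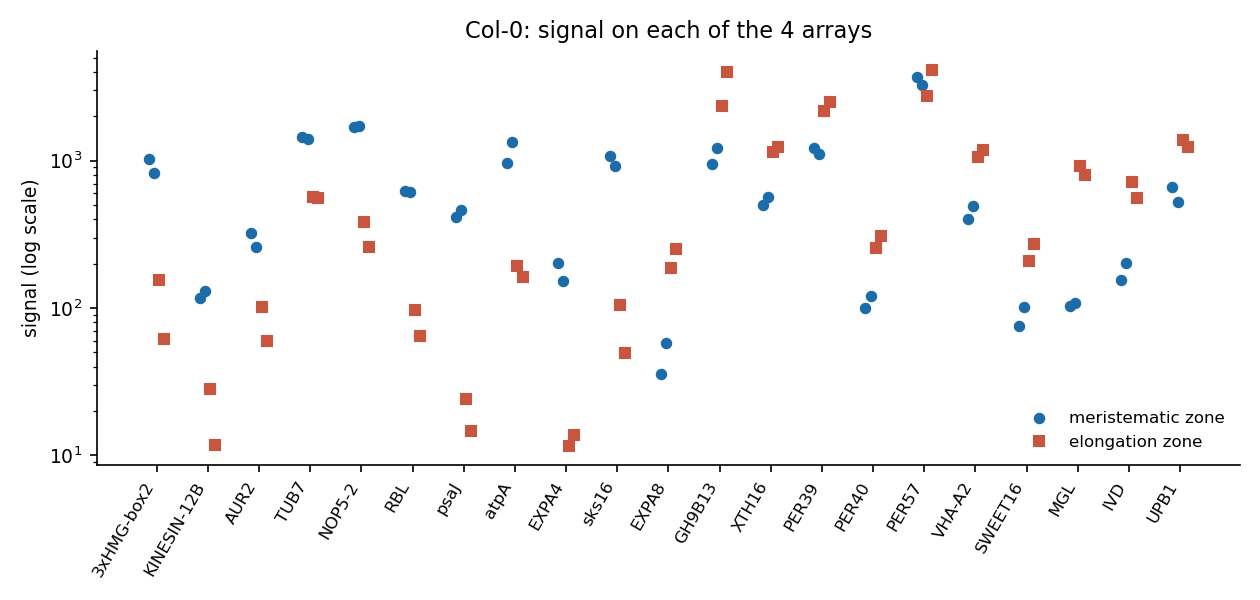
Signal (log scale) of 21 genes on each of the 4 Col-0 arrays, 2 of the meristematic zone (circles) and 2 of the elongation zone (squares). The first 10 genes, from 3xHMG-box2 to sks16, are lower on both elongation arrays, PER57 overlaps, and the remaining 10 are higher on both elongation arrays.

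Of 73 class III peroxidases, which are secreted enzymes, 55 were named on the array and 33 tested, and 9 rose, 8 fell and 16 did not pass, with 5 rises without meristematic replicate 2. Over all tested probe sets 17.5% were higher and 22.8% lower, so the share of falls was near the background. PER names and numbers, like the RBOH and some nucleolar names, were assigned to loci by hand. The gene table gave a number for 6 of these loci, the same one each time. PER39 (AT4G11290), PER40 (AT4G16270) and PER57 (AT5G17820) are those the study tied to UPB1 using these samples, so they are no independent evidence of a direction. PER39 rose from 1225 and 1113 to 2169.7 and 2509 (0.99 ± 0.24, adjusted p = 0.00425), and PER40 from 99.9 and 121 to 255 and 309.6 (1.23 ± 0.28). PER57 had 3693 and 3269 in the meristematic zone against 2732 and 4159 in the elongation zone, where the replicates lay on either side of the meristematic arrays (-0.04 ± 0.21, adjusted p = 0.889).

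PER21 (AT2G37130) had the largest rise of the family, from 889.6 and 1082 to 2736 and 4094 (1.75 ± 0.31). Among the falls, PER26 (AT2G43480) went from 329.9 and 309.9 to 19.2 and 31.1 (-3.04 ± 0.22) and PER61 (AT5G24070) from 406 and 553 to 77.1 and 64.9 (-2.50 ± 0.30). Both also fell in upb1-1 (-2.78 and -3.21) and on the arrays labelled OX (-2.95 and -2.45). PER35 (AT3G49960) and PER44 (AT4G26010) were different. PER35 had 295 and 206 in the meristematic zone and 2.08 and 8.36 in the elongation zone of Col-0 (-3.65 ± 0.27, adjusted p = 9.14e-07), but 201 and 217 and then 548 and 903 in upb1-1. Its zone change was thus opposite in the mutant (1.68 ± 0.27), and the difference was 5.33 ± 0.38 (adjusted p = 3.57e-06). PER44 fell in Col-0 from 666 and 627 to 51.05 and 98.4 (-2.92 ± 0.26) and rose slightly in upb1-1 (0.67 ± 0.26).

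Genes for making hydrogen peroxide or removing it gave few calls. Of 3 tested NADPH oxidases, which produce superoxide at the cell surface, RBOHG (AT4G25090) fell from 59.2 and 70.9 to 19.7 and 35.6 (-0.91 ± 0.32, adjusted p = 0.0318), and RBOHE and RBOHI did not pass. The call of RBOHG was lost in 7 of 13 alternatives. RBOHG was called in the opposite direction in upb1-1 (1.28 ± 0.32). Of 4 tested antioxidant enzymes GR, the plastid glutathione reductase, was called lower (-0.45 ± 0.17, adjusted p = 0.0416) and the others, GR1, SAPX and TAPX, were not. The call of GR was lost in 8 of 13 alternatives, each array left out among them. The 9 tested glutathione S-transferases conjugate glutathione to reactive compounds. Of these 3 fell and 2 rose, near the 22.8% lower and 17.5% higher over all tested probe sets. The largest fall was ATGSTF13, from 586 and 440.4 to 47.6 and 16.6 (-3.52 ± 0.30), and GSTU25 fell from 2569.9 and 2388 to 975 and 978 (-1.33 ± 0.16). GSTU22 and GSTU27 rose by 0.80 ± 0.18 and 0.78 ± 0.18.

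Root hair genes were lower in the elongation zone of Col-0, where 4 of 5 tested fell, against 22.8% of all tested probe sets. Root hairs grow out of epidermal cells beyond the elongation zone. EXPA18, a root hair expansin, had signals of 373 and 327 in the meristematic zone and 36.9 and 94.4 in the elongation zone (-2.26 ± 0.32, adjusted p = 9.22e-05). PER7 (AT1G30870), a root hair peroxidase, had 1258 and 1235 against 210.3 and 471 (-1.93 ± 0.30), and GH9C1, a root hair endoglucanase, 354 and 375 against 70.4 and 105 (-1.89 ± 0.32). In each of these 3 genes elongation replicate 1 was the lowest Col-0 array and replicate 2 the next lowest. The call of EXPA7, the other gene that fell, was lost in 5 of 13 alternatives. EXPA7 changed by -1.10 ± 0.34, and SCN1, which restricts hair initiation, had 1307 and 1416 against 2246 and 1692 and did not pass (adjusted p = 0.0693), though 1 gene of the list passed as a rise after median centring and without elongation replicate 2.

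The same 4 genes rose in upb1-1, where 24.1% of all tested probe sets were higher. The meristematic signals of PER7 were 1089 and 1262 there, close to Col-0, and the elongation signals 3127 and 5553, a change of 1.82 ± 0.30. The difference between the zone changes of upb1-1 and Col-0 was 3.74 ± 0.43 for PER7, 3.82 ± 0.45 for EXPA18, 3.84 ± 0.45 for GH9C1 and 2.64 ± 0.49 for EXPA7 (adjusted p = 0.000322, 0.000463, 0.000388 and 0.0123). In that test 1.48% of all tested probe sets were called higher, and here 4 of 5 genes were, but the members were known beforehand to differ. On the arrays labelled OX all 4 were dim, with at most 44.4 on any array. The 5 root hair genes summed to 3818 and 3815 in the Col-0 meristematic zone against 2732 and 2652 in its elongation zone, SCN1 making up most of the latter.

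**Figure D5:**
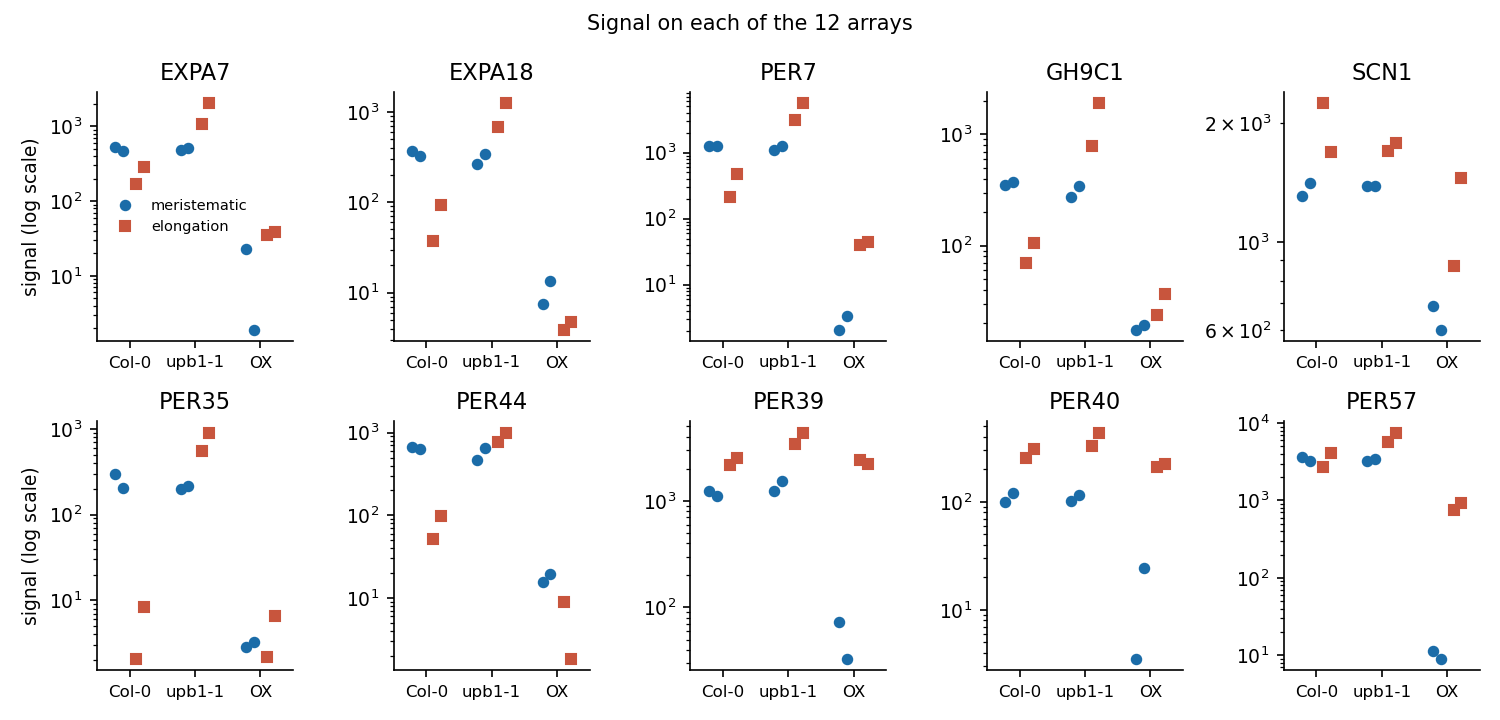
Signal (log scale, 1 scale per gene) of 5 root hair genes and 5 peroxidases on each of the 12 arrays, by genotype, with meristematic arrays as circles and elongation arrays as squares. EXPA7, EXPA18, PER7, GH9C1, PER35 and PER44 are lower on the elongation arrays of Col-0 and higher on those of upb1-1, whereas PER39 and PER40 are higher on the elongation arrays of all 3 genotypes.

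Markers of other cell types were sparse, since the gene tables name few of them on the array. BBM, a root stem cell niche regulator of the PLETHORA clade, fell from 35.4 and 47.9 to 6.92 and 14.0 (-1.13 ± 0.27, adjusted p = 0.00381), as in the other genotypes (-1.15 in upb1-1 and -2.76 on the arrays labelled OX). The other tested niche and meristem genes apart from UPB1, namely AGL42, CR4, JKD and LHW, did not pass. The endodermal gene SGN1 (AT1G61590) had 61.8 and 66.5 in the meristematic zone and 32.4 and 27.3 in the elongation zone (-0.81 ± 0.28, adjusted p = 0.0342), and GSO1, the receptor of the endodermal barrier, did not pass. The call of SGN1 was lost in 8 of 13 alternatives, each array left out among them. The xylem gene GUT2, the phloem signal CLE41 and the epidermal gene TRY did not pass, and no root cap marker of 11 was named. Of 2 photosynthesis markers, RCA and LHCB4.1, neither passed, and all their Col-0 signals were at most 77.3. Of 2 wounding markers WRKY53 rose from 28.2 and 27.8 to 96.7 and 88.6 (1.303 ± 0.27), as it did in upb1-1 (1.33) and on the arrays labelled OX (0.95), and STZ did not pass (12.9 and 15.5 against 34.8 and 26.2).

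Few hormone genes could be named. IAA20, an auxin response repressor, was called lower (-0.91 ± 0.34, adjusted p = 0.042) at signals of 13.0 and 35.5 against 2.81 and 6.47, and IAA30, GH3.1 and WES1 did not pass. The call of IAA20 was lost in 8 of 13 alternatives, quantile normalization and median centring among them. The gibberellin receptors GID1A and GID1B and the ethylene regulator EIN3 did not pass either, with changes between -0.10 and 0.34. F6H1, of coumarin synthesis for iron uptake, fell from 119 and 103 to 30.7 and 11.0 (-1.84 ± 0.34), and the hypoxia genes PDC2 and LDH did not pass. Of 7 tested RALFL genes, which encode small secreted peptides that alkalinise the wall, 4 fell and 1 rose, against 17.5% higher and 22.8% lower over all tested probe sets. They were picked as a family after values had been seen. In upb1-1 4 fell and none rose. On the arrays labelled OX 5 rose and none fell (median 0.65), where 23.9% of all tested probe sets were higher and 29.6% lower. The zone change there differed from Col-0 at 6 of the 7 genes.

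Most tested genes of the vacuolar-type proton pump and of tonoplast sugar transport were higher in the elongation zone. Of these 8 genes, most of them added after values had been seen, 6 rose, none fell by the limma test and 2 did not pass. The background was 17.5% rising. VHA-A2, a membrane subunit of the vacuolar proton pump, rose from 402 and 489.6 to 1067 and 1173 (1.304 ± 0.17, adjusted p = 5.42e-05). VHA-A3 rose from 1415 and 1576 to 2293 and 3148 (0.84 ± 0.19). Vacuolar sugar transporters SWEET16 and SWEET17 changed by 1.29 ± 0.29 and 0.84 ± 0.21. The calls of VHA-A1 and VHA-D, both among the 6 that rose, were lost in 5 and 4 of 13 alternatives. The median change of the 8 genes was 0.82 in Col-0, 1.16 in upb1-1 and 1.14 on the arrays labelled OX, and 7 rose in each of the latter, where 24.1% and 23.9% of all tested probe sets were higher. Without elongation replicate 2 the count in Col-0 was 3.

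Metabolic genes among the rises included those that break down amino acids. MGL, methionine gamma-lyase, had signals of 103 and 108 in the meristematic zone and 919.8 and 798 in the elongation zone, 8.14 times as high on average (2.85 ± 0.18, adjusted p = 3.05e-07). IVD, isovaleryl-CoA dehydrogenase of leucine breakdown, rose from 154 and 202 to 711 and 559 (1.75 ± 0.22), and MCCB, a subunit of the next enzyme of that pathway, by 0.90 ± 0.22. Of the 11 tested genes of this list, drawn up after values had been seen, 6 rose, none fell by the limma test and 5 did not pass. Over all tested probe sets 17.5% were higher and 22.8% lower. In upb1-1 3 of the 11 rose and 1 fell, and on the arrays labelled OX 2 rose and 2 fell. There 24.1% and 23.9% of all tested probe sets were higher, in that order, and 28.5% and 29.6% lower. In upb1-1 the rise of MGL was smaller (1.04 ± 0.18) and the difference from Col-0 was -1.80 ± 0.26 (adjusted p = 0.00255), while the change of IVD there was 0.37 and did not pass. On the arrays labelled OX IVD had signals of 448 and 449 in the meristematic zone and 444 and 461 in the elongation zone.

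ATP citrate lyase, which supplies cytosolic acetyl-CoA, and the mitochondrial citrate cycle were also on the rising side, with 7 of 13 tested genes called higher and none lower by the limma test, against 17.5% and 22.8% of all tested probe sets, again a list made after values had been seen. ACLA-3 rose from 461 and 515 to 787 and 801 (0.69 ± 0.16) and the succinate dehydrogenase subunit gene SDH2-1 from 1785 and 1832 to 2686 and 3705 (0.80 ± 0.18). Leaving out 1 array gave counts from 3 (without meristematic replicate 1) to 5, with 4 without elongation replicate 2. Of 34 tested UGT genes, glycosyltransferases of hormones and secondary metabolites, 10 rose and 1 fell, against 17.5% higher and 22.8% lower over all tested probe sets. The UGT family was also picked after values had been seen. UGT71C4 and UGT71B1 changed by 1.65 ± 0.18 and 1.33 ± 0.20.

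The largest rise of a named gene was that of AT3G55920, from 5.69 and 2.86 to 818 and 941 (5.46 ± 0.18, adjusted p = 1.72e-10). The 2 Col-0 meristematic arrays stood alone for this gene, as the meristematic signals were 505 and 471 in upb1-1 and 279.7 and 216 on the arrays labelled OX, and the elongation signals of the 3 genotypes lay between 698 and 941. Among the 12 largest rises, FKBP65 and AT3G10020 differed greatly between the elongation replicates. FKBP65 (AT5G48570), a heat-inducible peptidyl-prolyl isomerase, had 110.0 and 129.6 in the meristematic zone and 2394 and 339 in the elongation zone (2.77 ± 0.54), and AT3G10020 had 70.4 and 95.5 against 1055 and 417 (2.79 ± 0.35). FKBP65 had the largest excess of elongation replicate 1 over replicate 2, 2.76 log2 units, of all changed genes with a single name. AT5G37670 (2.58) and AT2G20560 (2.42) came next. Of the 11 tested heat shock genes, a list made after values had been seen that includes FKBP65, 5 fell, 1 rose and 5 did not pass. Over all tested probe sets 17.5% were higher and 22.8% lower. The 11 genes summed to 4979 and 4846 on the meristematic arrays and to 5526 and 2443 on elongation replicates 1 and 2. After median centring 4 of them rose, and 3 rose without elongation replicate 2.

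Other genes among the 12 largest rises have no symbol in the tables. AT1G27290 rose from 89.8 and 100.3 to 645 and 481 (2.37 ± 0.25) and AT5G20050 from 224 and 279 to 1311 and 1073 (2.18 ± 0.25), and both rose in all 3 genotypes. AT2G25450 rose from 254 and 214 to 1028 and 1417 (2.29 ± 0.31), and AT4G28260 from 158 and 186 to 842 and 877 (2.22 ± 0.21). AT5G59170 was the least certain, with 38.5 and 39.4 in the meristematic zone and 528 and 225 in the elongation zone and a standard error of 0.75 on its change of 2.72 (adjusted p = 0.00964).

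AT1G50060 fell from 1519 and 1745 to 51.02 and 38.2 (-4.77 ± 0.19, adjusted p = 1.25e-09), and the change was -5.30 in upb1-1 and -6.01 on the arrays labelled OX. AT3G15357 fell from 1532 and 1268 to 43.1 and 34.4 (-4.69 ± 0.23). Other large falls had much smaller values on the arrays labelled OX. AT5G27820 changed by -3.69 ± 0.19 in Col-0, -4.43 in upb1-1 and -0.54 on the arrays labelled OX, and AT1G15270 by -3.65 ± 0.27, -4.64 and 0.01 in the same order. The first passed on the arrays labelled OX and the second did not. MT1C, a metallothionein, fell from 902 and 540.2 to 88.2 and 17.6 (-3.59 ± 0.73), with replicates apart in both zones.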

How the data were processed

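Transcript levels in 12 root samples were measured on ATH1 arrays. The deposited values are linear signal intensities made by the authors with MAS5, per the submitters' processing notes, with no version given. The values show 1 scaling, since the 2% trimmed mean was 250.0 on every array. No column of the table was left unused.

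A constant of 16 was added to each signal before log2, and no other scaling was applied. Probe sets that reached the 40th percentile of their array on at least 2 of the 12 arrays were tested, and 64 control probe sets were left out. limma 3.58.1 in R 4.3.3 fitted 6 group means to the 12 arrays (lmFit, eBayes with a trend, two-sided, prior of 8.75 degrees of freedom), with Benjamini-Hochberg adjustment over the 15834 probe sets and a threshold of 0.05. The number of arrays, 2 a group, limits the precision.

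Gene names came from the platform annotation, which lists 14016 probe sets, and a TAIR10.1 gene table from which only names were taken. A single gene was given for 8906 (56.2%) of the tested probe sets and several for 328, and 6600 are unnamed here. Where several probe sets gave 1 gene, the brightest in Col-0 stood for it. Named genes are UPB1, the 12 largest rises and falls among changed genes whose zones do not overlap and whose brighter mean exceeds the median, up to 6 members of each list by smallest p, all tested cell type markers, the largest rise and fall of each family, and up to 5 genes per interaction. Genes named from lists drawn up after values had been seen, and those with TBL, UGT and RALFL symbols, lie outside that rule. All genes were grouped by the stem of their symbol after values had been seen, and only TBL, UGT and RALFL are described from these groups. Other groups were less one-sided. SCPL, for example, had 4 rises and 5 falls among 20 tested genes, and TET had 2 and 2 among 8. Members and lists were chosen with earlier results of these data known. Alternatives changed the constant, the filter, the scaling, the arrays in the fit, the variance trend and the pairing of replicates. Lists with no tested member (cytokinin genes, laccases) or no named probe set (root cap markers, nutrient uptake genes) gave no result. Among 9 tested cytochrome P450 genes 1 rose and 1 fell, against 17.5% higher and 22.8% lower over all tested probe sets. Sequences and promoter motifs were not analysed here.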

Additional observations from a re-analysis of the deposited data

Results flagged for a closer look

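Genes are given here because their zone difference (elongation minus meristematic, log2) differed between genotypes by limma's interaction test. Each value is the zone difference in the named genotype minus that in Col-0, so a positive value means that the gene was relatively higher in the elongation zone than in Col-0. All tests share the 4 Col-0 arrays.

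Against upb1-1, the differences were positive for the peroxidases PER35 (5.33), PER44 (3.59) and PER7 (3.74), for the root hair genes EXPA18 (3.82), GH9C1 (3.84) and EXPA7 (2.64), and for AT3G12540 (3.56). They were also positive for F6H1 (2.402), RBOHG (2.199), the pectin methylesterase gene PMEPCRF (2.33) and the expansin-like gene EXLA1 (1.28). They were negative for AT3G55920 (-4.76), AT5G35940 (-3.65), AT3G10020 (-3.16), MGL (-1.80) and AT4G27450 (-1.79). Adjusted p-values of these 16 genes ran from 1.84e-07 (AT3G55920) to 0.0486 (EXLA1).

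Against the arrays labelled OX, the same test gave 5.05 for PER57, 4.76 for PER45, 4.15 for PER39, 3.73 for PER35, 3.57 for PER7, 2.25 for PER44 and 1.82 for PER40. PER45, for example, had a zone change of 0.77 in Col-0 and 5.53 on the arrays labelled OX. The wall gene XTH16 gave 3.17, and the root hair genes GH9C1, EXPA7 and EXPA18 gave 2.30, 2.097 and 1.89. These 3 root hair genes and PER7 were dim on the arrays labelled OX. The zone changes there were 0.41 for GH9C1, 1.00 for EXPA7, -0.37 for EXPA18 and 1.64 for PER7. Of genes with no symbol, AT1G62480 gave 4.28, AT5G46230 3.76 and AT3G55920 -4.02. The plastid-encoded genes psaJ, accD, atpA, psaI, atpB and rpl22 gave 3.41, 2.59, 2.49, 2.32, 2.14 and 1.49, and ndhC gave -1.96. The mean log2 ratio of 3′ over 5′ control signal was 4.17 on the meristematic arrays labelled OX and 2.22 on those of Col-0. The part of this ratio in the differences was not tested.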

How the results depend on the processing

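Across 13 alternatives, 121 of the 169 genes followed here were called in Col-0, and 92 of the 121 kept direction and call in every alternative that tested them. Of 2173 values 105 lost the call, 38 gained it and none reversed. Genes lost in 5 or more alternatives were GR, IAA20 and SGN1 (8 each), GSTU28, PMEPCRF and RBOHG (7 each), ccb206 (6), and AUR3, EXPA7, PER45, VHA-A1 and nad1 (5 each). The count of 6382 changed probe sets lay between 5835 and 6892 in the alternatives on all 4 Col-0 arrays, of which 74.9% to 99.3% were among the 6382, and between 4016 (without meristematic replicate 1) and 5286 when 1 Col-0 array was left out, where the lone array is assumed to vary like the other groups. Rises then numbered 1651 to 2192 and falls 2365 to 3094. Centring arrays on their median gave 4497 rises and 2395 falls, so 34.8% were lower. The replicates share numbers, but the labels name no shared batch. The correlation between zones of the differences between replicates was -0.030 in Col-0, 0.030 in upb1-1 and 0.0065 on the arrays labelled OX. No shared shift by replicate number was thus seen. Whether samples with the same number came from the same roots is not known here. With a replicate block 6391 probe sets changed, and no call of a named gene was lost.

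Counts for the other comparisons were recomputed as alternatives added after seeing the data. The 359 probe sets whose zone difference departed from Col-0 in upb1-1 became 118 with a constant of 1, 557 with a constant of 64, 148 without the filter and 215 without the variance trend, and 59 to 742 without 1 Col-0 array (59 without meristematic replicate 1, 742 without elongation replicate 2), and the cause was not tested. Those on the arrays labelled OX, 3803, became 2365 (without meristematic replicate 1) to 3497 without 1 Col-0 array, with 2490 without meristematic replicate 2. Between 43 and 53 plastid-encoded genes, 11 and 13 ribosome biogenesis factors and 9 and 13 mitosis genes fell when 1 array was left out. Dim probe sets limit the comparison, since a change below the constant of 16 is compressed.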
